A study of Homo sapiens with 12 samples.

Results

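The genes described here are 10 members of the stress response that runs through the transcription factors ATF4 and CHOP: ATF3, ATF4, DDIT3 (the gene of CHOP), CEBPB, CEBPG, TRIB3, PPP1R15A (the gene of GADD34), CHAC1, SESN2 and DDIT4. They were picked by name out of 19775 genes with a probe set of their own on the array. Where a gene had several such probe sets, the gene was read from the one whose mean across the 12 arrays was highest, so that its level chose it and its response to the drug did not. A gene was tested where its value exceeded 4, a floor on the log2 scale, in at least 2 arrays. That held for 10561 genes and for 9 of the 10 members, all but CHAC1.

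The samples were SEM-K2 and RS4:11, established cell lines of acute lymphoblastic leukaemia that carry the MLL-AF4 fusion. Each line received vehicle or obatoclax, a small molecule that binds the antiapoptotic proteins of the BCL2 family, for 6 h. The dose was the concentration that gave the half-maximal effect (EC50) in a 72 h assay, or 3 times that concentration (3xEC50). The 6 groups were thus RS4:11 with vehicle, at EC50 and at 3xEC50, and SEM-K2 with vehicle, at EC50 and at 3xEC50, each with 2 biologic replicates and 1 Affymetrix U133 Plus 2 array per replicate. All groups carry the fusion, and each line stands for a single leukaemia. The molar doses behind EC50 and 3xEC50 are not given in the sources used here, so equal labels need not mean equal exposure of the lines. How far apart the paired cultures were grown is not stated either, and the p-values therefore reflect only the spread of these arrays, which may be partly technical.

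When the initiation factor eIF2 is phosphorylated, by kinases that sense unfolded protein, amino acid shortage, haem shortage or viral RNA, most translation slows while ATF4 protein is made more efficiently. ATF4 then pairs with C/EBP proteins such as CEBPG and CEBPB and switches on amino acid metabolism together with DDIT3, ATF3, TRIB3, CHAC1, SESN2 and DDIT4. PPP1R15A directs a phosphatase back onto eIF2 and so closes the loop, and prolonged CHOP activity is linked with cell death in many tissues, lymphoid cells among them. ATF4 itself is governed largely through translation, which an array of messenger RNA does not read.

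The stretches ahead of the start sites are shown first, because these genes are known through the short sequences that ATF4 and its relatives bind. They are RefSeq sequences of the human build GRCh38.p14, printed 5′ to 3′ on the strand of the gene, with matches to a searched motif in capitals. All 10 genes had at least 1 window of 250 bases before to 50 bases after a listed start, 17 windows in all. Both strands were searched for the C/EBP-ATF response element (TGATGNAA) and the cyclic AMP response element (TGACGTCA). The AP-1 site (TGANTCA) and the endoplasmic reticulum stress element were searched likewise. None of these motifs contains another, but a freer form of the stress element, searched later, includes every match of the strict form. A match is only a match of letters. The 2 tested members with the largest positive changes in SEM-K2 are given with their 250 upstream bases, PPP1R15A at chr19:48872171-48872420 on the plus strand and DDIT3 at chr12:57520515-57520764 on the minus strand.
PPP1R15A upstream: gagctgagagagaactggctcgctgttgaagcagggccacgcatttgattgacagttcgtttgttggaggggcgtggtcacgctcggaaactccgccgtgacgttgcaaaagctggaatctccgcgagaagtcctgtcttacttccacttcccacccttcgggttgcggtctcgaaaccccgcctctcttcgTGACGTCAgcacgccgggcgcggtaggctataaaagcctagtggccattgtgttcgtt
DDIT3 upstream: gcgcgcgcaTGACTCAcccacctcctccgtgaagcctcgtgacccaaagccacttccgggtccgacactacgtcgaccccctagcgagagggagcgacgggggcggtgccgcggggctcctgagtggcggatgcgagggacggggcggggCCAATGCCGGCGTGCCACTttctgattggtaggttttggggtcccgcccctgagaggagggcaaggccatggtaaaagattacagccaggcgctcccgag
In PPP1R15A the capitals are a cyclic AMP response element that lies 58 to 51 bases before the start. That motif was found in 1.85% of all 35116 windows and in 2.77% of those of the genes tested. In DDIT3 the first capitals are an AP-1 site, 241 to 235 bases before the start. Such a site was found in 7.71% of all windows and in 4.75% of those of the genes tested. The second capitals, 100 to 82 bases before the start, match the stress element except in its last letter. The same element with its last letter left free was searched only after this window had been read. This free form occurred in 0.316% of all windows and in 0.369% of those of the genes tested. The strict form occurred in 0.0769% of all windows, in 0.126% of those of the genes tested, and in no member.

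The C/EBP-ATF response element occurred in 3 of the 17 member windows (17.6%), each of another gene. It occurred in 3.62% of all windows, in 1.95% of those of the genes tested, and in 12 of 37 windows (32.4%) of amino acid and tRNA synthetase genes that ATF4 is known to drive. The 3 matches are shown with 11 bases on either side, ATF3 at chr1:212565205-212565234, CEBPG at chr19:33374060-33374089 and CHAC1 at chr15:40953251-40953280, all on the plus strand.
ATF3 site: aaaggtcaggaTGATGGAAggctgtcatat
CEBPG site: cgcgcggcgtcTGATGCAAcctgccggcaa
CHAC1 site: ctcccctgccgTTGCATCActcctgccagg
The match of ATF3 lies 191 to 184 bases before a listed start, that of CEBPG 42 to 35 bases before its second listed start, and that of CHAC1 209 to 202 bases before the start, read from the other strand. Both ATF3 and CEBPG lay above vehicle in SEM-K2 and below it in RS4:11 on their 3xEC50 arrays, without passing limma's test in either line. TRIB3, with no match in its 3 windows, did the same. Whether the element goes with the response was not tested. CHAC1 lay below the floor on every array.

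The cell line was the main divide among the arrays, with 80.5% of the variance on the component that separated SEM-K2 from RS4:11. The next component, with 6.40%, was positive on every array numbered replicate 1 and negative on every array numbered replicate 2. The numbers were taken to pair the arrays, and a fit with the replicate number as a block is named where it changes a call. SEM-K2 3xEC50 replicate 2 had a 3′ minus 5′ difference of 1.97 on the log2 scale for ACTB, against 0.87 to 1.23 on the other 11 arrays. RS4:11 vehicle replicate 1 had a ribosomal 18S signal of 9.85, against 5.20 to 6.98 elsewhere. Of 13 markers of precursor B cells 12 have a probe set; all 12 were above the floor in RS4:11 and 9 in SEM-K2, where DNTT, RAG1 and BLNK were below it. Of the lists of other blood cells only CSF1R (myeloid), NKG7 (T and NK cells) and ITGA2B (megakaryocytes) were above the floor in any group, and in these bulk samples fewer cells of a type and less RNA per cell cannot be told apart. At 3xEC50, 9 of the 12 precursor B cell markers lay above vehicle in SEM-K2 (median 0.53) and 11 in RS4:11 (median 0.49), with 0 called by limma and CD72 called with the block in SEM-K2 (1.25, adjusted p = 0.0175). Before adjustment 3 of these markers were higher in SEM-K2 at p under 0.05, against 8.1% of genes, and 2 in RS4:11, against 2.53%. Their summed level in SEM-K2 ran from 14.29 to 14.51 (log2) with vehicle and from 14.39 to 14.81 at 3xEC50. The change of NKG7 was 1.04 ± 0.54 in SEM-K2 and 0.18 ± 0.54 in RS4:11, with adjusted p of 0.505 and above from limma. NKG7 was called in SEM-K2 at 3xEC50 with the block within each line (adjusted p = 0.0297), and with both doses pooled and the block over all arrays (1.13, adjusted p = 0.0472). The part of these markers in the results was not tested.

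In SEM-K2 at 3xEC50, PPP1R15A rose 2.85-fold and was the single member called by limma at an adjusted p under 0.05, over all genes tested. DDIT3, with a 2.22-fold higher mean, came closest behind it and was called only when the replicate number was a block. ATF3, TRIB3 and CEBPG lay above vehicle on both arrays without passing the test, while ATF4, the factor upstream of them, lay within the range of its vehicle arrays or just under it. In RS4:11 no member was called, and most members had lower values with the drug than with vehicle. In the 4 dose groups, PPP1R15A was the member whose mean lay above vehicle in both lines by more than its SE.

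**Figure D1:**
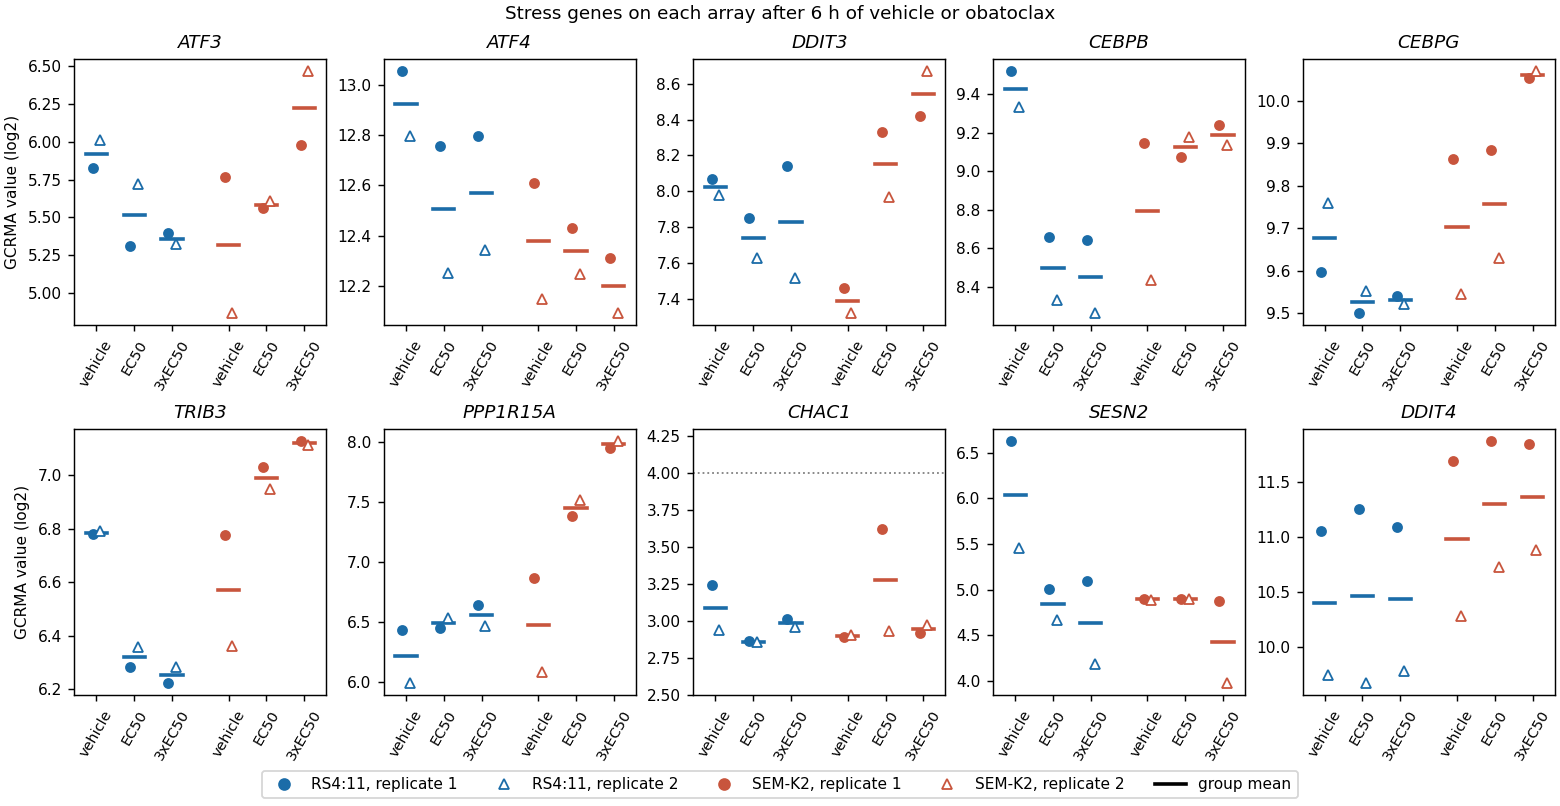
GCRMA values (log2, y axis) of the 10 genes on each of 12 arrays, by cell line and dose (x axis). Circles are replicate 1, triangles replicate 2 and bars the group means; each panel has its own axis, and the dotted line in the CHAC1 panel is the floor of 4. PPP1R15A climbs from 6.87 and 6.08 to 7.95 and 8.01 in SEM-K2, while TRIB3 lies above vehicle in SEM-K2 and below it in RS4:11.

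PPP1R15A encodes GADD34, the subunit that directs a phosphatase to eIF2. In SEM-K2 it read 6.87 and 6.08 with vehicle, 7.39 and 7.52 at EC50, and 7.95 and 8.01 at 3xEC50. RS4:11 gave 6.43 and 5.99 with vehicle, 6.45 and 6.53 at EC50, and 6.64 and 6.47 at 3xEC50. The treated SEM-K2 arrays were thus the highest 4 of all 12, and within RS4:11 the treated arrays also lay above both vehicle arrays, by a narrow margin, as in 10.8% of genes. The SEM-K2 change at 3xEC50 was 1.51 ± 0.25 (SE of the log2 change, n = 2 against 2 arrays, limma adjusted p = 0.0312, and 0.013 with the block). It was larger within replicate number 2 (1.93) than within number 1 (1.08), with vehicle replicate 2 being the lowest SEM-K2 array. Of all genes tested, 0.625% were called higher in this comparison, and 1.55% with the block. That share stands for 66 genes, and the count was 11 without SEM-K2 vehicle replicate 2, 14 without SEM-K2 3xEC50 replicate 2, 142 without SEM-K2 vehicle replicate 1, and 28 to 44 without any 1 RS4:11 or SEM-K2 EC50 array.

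That call rested on the pooled spread and on few arrays. It held without SEM-K2 vehicle replicate 1 (PPP1R15A 1.90, adjusted p = 0.0114) and without either RS4:11 vehicle array (0.0456). It was lost without SEM-K2 vehicle replicate 2 (1.11, adjusted p = 0.148), SEM-K2 3xEC50 replicate 1 (1.54, 0.0592) and SEM-K2 3xEC50 replicate 2 (1.48, 0.21), the array set apart by its 3′ to 5′ difference. It was also lost, at an unchanged 1.51, without either SEM-K2 EC50 array (adjusted p = 0.0641), either RS4:11 EC50 array (0.0595) or either RS4:11 3xEC50 array (0.0611), which add only to the estimate of the spread. A second probe set of the gene read 5.41 and 4.85 with vehicle, 6.25 and 6.37 at EC50, and 6.69 and 6.61 at 3xEC50 in SEM-K2, again with every treated array above vehicle.

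At EC50 the change of PPP1R15A in SEM-K2 was 0.98 ± 0.25, with an adjusted p of 0.34 from limma. With both doses pooled against vehicle it was 1.24 ± 0.21 (limma adjusted p = 0.0376), among 0.549% of genes called higher. That pooled call of PPP1R15A was lost without any 1 of the same 9 arrays, with a change of 0.85 to 1.28 and an adjusted p of 0.0668 to 0.293. In RS4:11 the changes were 0.28 at EC50 and 0.34 ± 0.25 at 3xEC50, with a 95% interval of -0.22 to 0.90 at the higher dose.

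DDIT3 encodes CHOP, a C/EBP relative that pairs with other C/EBP proteins. In SEM-K2 it read 7.46 and 7.32 with vehicle, 8.33 and 7.97 at EC50, and 8.42 and 8.67 at 3xEC50. The RS4:11 arrays read 8.07 and 7.98 with vehicle, 7.85 and 7.63 at EC50, and 8.14 and 7.52 at 3xEC50. All 4 treated SEM-K2 arrays lay above both vehicle arrays, which were the lowest of the 12, and treated and vehicle arrays of RS4:11 overlapped at 3xEC50. The SEM-K2 change was 0.76 ± 0.22 at EC50 (limma adjusted p = 0.526) and 1.15 ± 0.22 at 3xEC50 (0.0588), with a 95% interval of 0.65 to 1.65. With the replicate block the adjusted p at 3xEC50 was 0.0206, and within the replicate numbers the change was 0.95 and 1.35. Without SEM-K2 3xEC50 replicate 2 it was 1.03 for DDIT3. In RS4:11 at 3xEC50 it was -0.20 ± 0.22.

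ATF3, a stress-induced repressor and activator of the same family, differed between the replicates of its control. Its SEM-K2 arrays read 5.77 and 4.86 with vehicle, 5.56 and 5.61 at EC50, and 5.98 and 6.47 at 3xEC50. In RS4:11 it read 5.82 and 6.01 with vehicle, 5.31 and 5.72 at EC50, and 5.40 and 5.32 at 3xEC50. The 3xEC50 arrays of SEM-K2 lay above both vehicle arrays and those of RS4:11 below both. The SEM-K2 change of 0.91 ± 0.29 (limma adjusted p = 0.264) was 0.21 within replicate number 1 and 1.61 within number 2. ATF3 was called without SEM-K2 vehicle replicate 1 (1.36, adjusted p = 0.0459), and its change was 0.46 without SEM-K2 vehicle replicate 2. The 2 further probe sets of ATF3 stayed below the floor on every array.

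ATF4 messenger RNA was abundant, and in SEM-K2 its treated arrays lay close to vehicle. The SEM-K2 arrays read 12.61 and 12.15 with vehicle, 12.43 and 12.25 at EC50, and 12.31 and 12.09 at 3xEC50. Its RS4:11 values were 13.06 and 12.80 with vehicle, 12.76 and 12.25 at EC50, and 12.80 and 12.34 at 3xEC50. Replicate 1 was the higher of the pair in 6 of 6 groups. The change at 3xEC50 was -0.18 ± 0.24 in SEM-K2, with a 95% interval of -0.72 to 0.37, and -0.36 ± 0.24 in RS4:11. At EC50 the RS4:11 change was -0.42. All treated RS4:11 arrays lay below both vehicle arrays, 3xEC50 replicate 1 by a near tie.

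CEBPB, a C/EBP factor that ATF4 and CHOP both bind, was highest in untreated RS4:11. Its RS4:11 arrays read 9.52 and 9.33 with vehicle, 8.66 and 8.33 at EC50, and 8.65 and 8.26 at 3xEC50. In SEM-K2 it read 9.14 and 8.44 with vehicle, 9.07 and 9.18 at EC50, and 9.24 and 9.13 at 3xEC50. The treated RS4:11 arrays were well apart from their vehicle arrays at either dose, whereas in SEM-K2 vehicle replicate 1 lay among the treated arrays. The RS4:11 change was -0.93 ± 0.24 at EC50 and -0.97 ± 0.24 at 3xEC50 (limma adjusted p = 0.517), with a 95% interval of -1.51 to -0.43 at the higher dose. With both doses pooled it was -0.95 ± 0.21, with an adjusted p of 0.277 from limma and 0.0755 with the block.

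CEBPG, the usual partner of ATF4 in amino acid stress, read 9.86 and 9.55 with vehicle, 9.88 and 9.63 at EC50, and 10.05 and 10.07 at 3xEC50 in SEM-K2. RS4:11 gave 9.60 and 9.76 with vehicle, 9.50 and 9.55 at EC50, and 9.54 and 9.52 at 3xEC50. At 3xEC50 the difference from vehicle was 0.36 ± 0.16 in SEM-K2 and -0.15 ± 0.16 in RS4:11, without passing the test in either. Its other probe set gave 0.20 and -0.15.

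TRIB3 encodes a pseudokinase that ATF4 and CHOP induce and that restrains ATF4 in turn. SEM-K2 gave 6.78 and 6.36 with vehicle, 7.03 and 6.95 at EC50, and 7.13 and 7.11 at 3xEC50. Its RS4:11 arrays read 6.78 and 6.79 with vehicle, 6.28 and 6.36 at EC50, and 6.22 and 6.28 at 3xEC50. It was the single member whose treated arrays all lay above vehicle in SEM-K2 and all below vehicle in RS4:11, a pattern shown by 20 of 10561 genes, 0.189%. The change at 3xEC50 was 0.55 ± 0.16 in SEM-K2 (limma adjusted p = 0.21) and -0.53 ± 0.16 in RS4:11 (0.666). A second probe set stayed near the floor, with means between 3.98 and 4.16, and did not show this.

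CHAC1, which encodes an enzyme that degrades glutathione, is among the targets that ATF4 raises most in many cells. Its values ran from 2.86 to 3.62 and lay under the floor of 4 on all 12 arrays, so no fold or test is given. The highest, 3.62, was SEM-K2 EC50 replicate 1, and its partner read 2.93.

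SESN2, a sestrin that senses leucine and holds back the growth kinase mTORC1, had its highest values in untreated RS4:11. There it read 6.63 and 5.45 with vehicle, 5.01 and 4.67 at EC50, and 5.09 and 4.18 at 3xEC50. Its SEM-K2 arrays read 4.90 and 4.89 with vehicle, 4.90 and 4.90 at EC50, and 4.87 and 3.98 at 3xEC50. The RS4:11 change at 3xEC50 was -1.40 ± 0.43 (limma adjusted p = 0.713). It was -0.81 without RS4:11 vehicle replicate 1, the array with the high 18S signal, and -1.99 without RS4:11 vehicle replicate 2. For SESN2 in SEM-K2 the change was -0.47 ± 0.43 and came from 1 array, 3xEC50 replicate 2, the array set apart by its 3′ to 5′ difference. A second probe set of SESN2 stayed below the floor on every array. In SEM-K2 it read 3.01 and 2.82 with vehicle and 3.26 and 2.82 at 3xEC50. In RS4:11 it read 3.95 and 2.89 with vehicle and 2.52 and 2.52 at 3xEC50.

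DDIT4, also called REDD1, restrains mTORC1 through the TSC complex and answers to low oxygen and glucocorticoids as well as to ATF4. It read 11.06 and 9.75 with vehicle, 11.26 and 9.67 at EC50, and 11.09 and 9.78 at 3xEC50 in RS4:11. In SEM-K2 it read 11.69 and 10.28 with vehicle, 11.88 and 10.73 at EC50, and 11.85 and 10.89 at 3xEC50. Here the replicate number mattered more than the drug: replicate 1 exceeded replicate 2 by 0.96 to 1.59 in 6 of 6 groups. The SEM-K2 change at 3xEC50 was 0.38 with an SE of 0.75, which was 0.16 with the block (adjusted p = 0.268). It was 0.15 within replicate number 1 and 0.60 within number 2. In RS4:11 it was 0.03, with a 95% interval of -1.66 to 1.73.

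**Figure D2:**
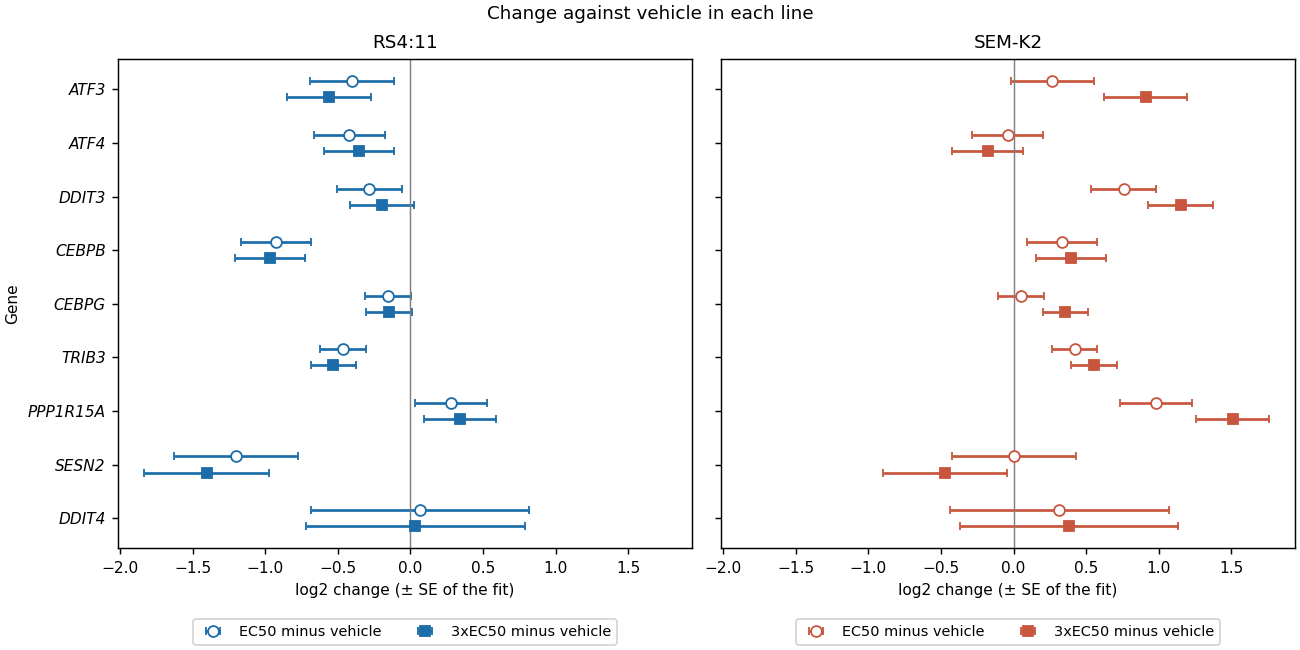
Change against vehicle (log2, x axis) of the 9 tested genes (y axis) in RS4:11 (left) and SEM-K2 (right), at EC50 (open circles) and 3xEC50 (filled squares); bars are the SE of the fit. PPP1R15A stands at 1.51 and DDIT3 at 1.15 in SEM-K2 at 3xEC50, SESN2 at -1.40 and CEBPB at -0.97 in RS4:11, and DDIT4 has the widest bars.

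Counted together, in SEM-K2 7 of the 9 tested members had a mean at 3xEC50 above vehicle, and their median change was 0.39 against 0.06 over all genes. Before adjustment, 5 were higher and 0 lower at p under 0.05, where 8.1% and 3.58% of all genes were. Both 3xEC50 arrays lay above both vehicle arrays for 5 members, against 22.6% of genes, and below them for 1, SESN2, against 14.0%. SESN2 entered by a near tie, 4.87 on 3xEC50 replicate 1 against 4.89 on vehicle replicate 2. At EC50 the median was 0.32 against 0.05, and limma called 0 members in SEM-K2, where it called 0.17% of all genes; with the block it called 0 members and 0.436% of genes. Unadjusted, 3 members were higher there at p under 0.05, against 3.97% of genes. These counts describe members that were chosen with results of these arrays known.

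In RS4:11 the same count ran the other way, with 7 of 9 below vehicle at the higher dose (median change -0.36, and 0.02 over all genes). Limma called 0 members at either dose, with or without the block, and 0.0% of all genes. Unadjusted p-values under 0.05 were reached by 3 members that were lower at 3xEC50 (CEBPB, SESN2 and TRIB3), against 2.38% of genes, and by 3 at EC50, against 1.73%. Both 3xEC50 arrays lay below both vehicle arrays for 6 members, against 15.9% of genes, and above them for PPP1R15A, against 18.4%. With 4 treated arrays against 2, the members below vehicle on every treated array were ATF3, ATF4, CEBPB, CEBPG, TRIB3 and SESN2, against 8.3% of genes. ATF4 entered both counts by a near tie, 12.7953 on RS4:11 3xEC50 replicate 1 against 12.7960 on vehicle replicate 2. In SEM-K2 DDIT3, TRIB3 and PPP1R15A were above vehicle on every treated array, against 12.4% of genes.

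The step from EC50 to 3xEC50 passed no test for any member. Limma called 0 members in SEM-K2 and 0 in RS4:11, with or without the block, where 0.0% of all genes were called in each of these. No member reached p under 0.05 before adjustment either (0 of 9 in each line), where 1.19% of genes were higher and 1.02% lower in SEM-K2, and 0.227% higher and 0.578% lower in RS4:11. In SEM-K2 the largest steps were 0.64 ± 0.29 for ATF3 and 0.53 ± 0.25 for PPP1R15A. For 5 members in SEM-K2, ATF3, DDIT3, CEBPG, TRIB3 and PPP1R15A, both 3xEC50 arrays exceeded both EC50 arrays, against 14.9% of genes. In RS4:11 no step exceeded its SE, and the largest was -0.20 ± 0.43 for SESN2.

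**Figure D3:**
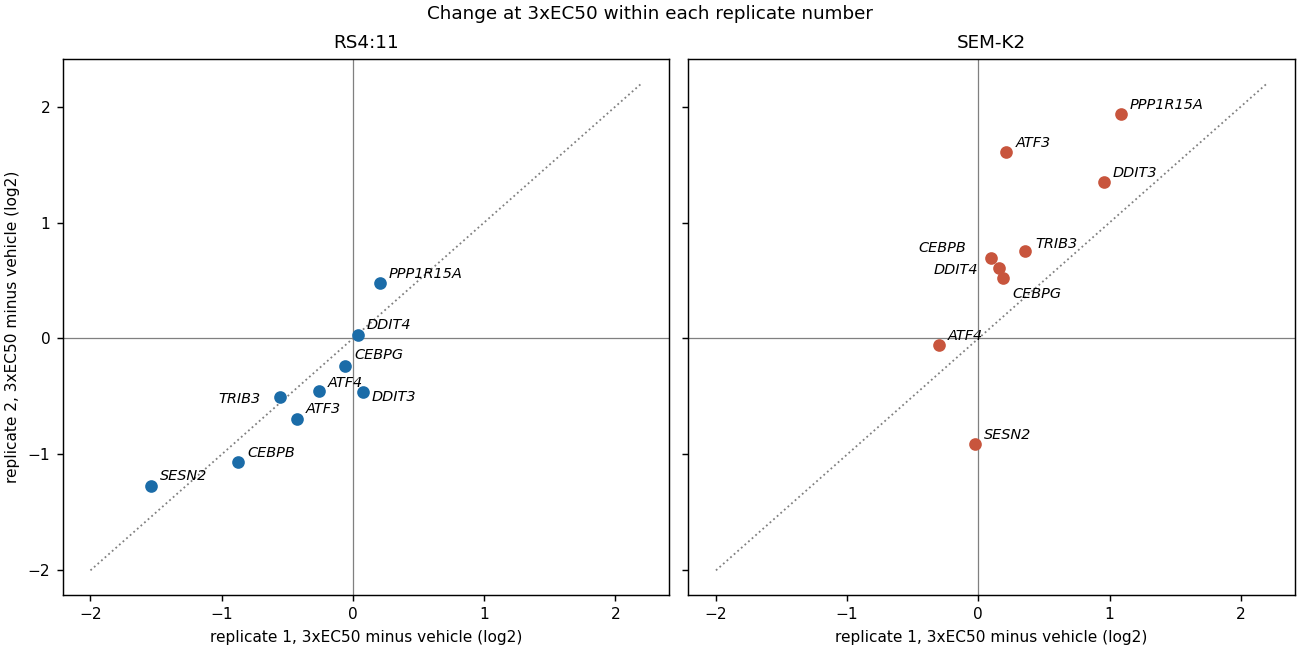
Change at 3xEC50 (log2) within replicate number 1 (x axis) and number 2 (y axis) for the 9 tested genes in RS4:11 (left) and SEM-K2 (right); the dotted line marks equal change. In RS4:11 the points lie near the line, DDIT3 farthest from it, and in SEM-K2 8 of 9 lie above it, all but SESN2, as ATF3 does with 0.21 and 1.61.

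Whether the lines answered differently was tested as the SEM-K2 change minus the RS4:11 change. At 3xEC50 this difference was above 0 for 9 of 9 members, with a median of 1.08 against 0.05 over all genes. It was 1.47 ± 0.41 for ATF3, 1.36 ± 0.34 for CEBPB, 1.35 ± 0.32 for DDIT3, 1.17 ± 0.35 for PPP1R15A and 1.08 ± 0.22 for TRIB3. Limma called 0 members and 0.0379% of all genes, and with the block 0 members and 0.0473%. TRIB3 had the smallest adjusted p of the members, 0.415. Before adjustment 6 members differed at p under 0.05, against 2.54% of genes in that direction. The 95% intervals of ATF3, CEBPB, DDIT3, PPP1R15A, TRIB3 and CEBPG lay above 0 before that adjustment, for TRIB3 from 0.58 to 1.58.

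At EC50 the difference was again above 0 for 9 of 9 members, with a median of 0.70 against 0.04, and limma called 0, with or without the block (0.00947% of genes in either). Unadjusted, 3 members differed at p under 0.05, against 1.04% of genes. It was 1.26 ± 0.34 for CEBPB, 1.04 ± 0.32 for DDIT3 and 0.88 ± 0.22 for TRIB3. With the doses pooled, limma called 0 members and 0.0663% of genes, and with the block 0 members and 0.0473%. Before adjustment 5 members passed 0.05, against 1.77% of genes, and TRIB3 (0.98 ± 0.19) reached an adjusted p of 0.337, the lowest of the members. The 2 dose comparisons share their vehicle arrays, so the pooled value is no second sample of the first.

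The lines were also compared without the drug. These vehicle arrays enter the differences in response with the opposite sign, so the comparisons are not independent. With vehicle, 6 of 9 members were lower on both SEM-K2 arrays than on both RS4:11 arrays (ATF3, ATF4, DDIT3, CEBPB, TRIB3 and SESN2), against 26.8% of genes. TRIB3 entered by a near tie, 6.777 on SEM-K2 vehicle replicate 1 against 6.778 on RS4:11 vehicle replicate 1. For ATF3 the same 2 arrays read 5.77 and 5.82. At 3xEC50, 6 were higher on both SEM-K2 arrays, against 34.4% of genes, and 1, ATF4, lower, against 26.7%. The vehicle difference, SEM-K2 minus RS4:11, was -1.15 ± 0.43 for SESN2, -0.63 ± 0.22 for DDIT3, -0.63 ± 0.24 for CEBPB and -0.55 ± 0.24 for ATF4. Limma called 0 of these members, with adjusted p from 0.0818 upward, where 19.6% of all genes were called. Unadjusted, 4 members were lower at p under 0.05, against 14.6% of genes.

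With the replicate block 5 members differed between the untreated lines: SESN2 (adjusted p = 0.018), DDIT3 (0.0383), CEBPB (0.0329) and ATF4 (0.0158) were lower in SEM-K2 and DDIT4 (0.59, 0.0251) was higher, where 26.8% of genes were called. A share of 5 in 9 stands on a background in which more than 1 gene in 4 is called. Leaving out single arrays also altered this count. ATF3 (adjusted p = 0.0246) and CEBPB (0.0199) were called without SEM-K2 vehicle replicate 1, SESN2 (0.03) without RS4:11 vehicle replicate 2, and DDIT3 (0.0475) without either RS4:11 3xEC50 array.

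The order of the 6 groups differed from gene to gene. DDIT3 was highest in SEM-K2 at 3xEC50 (8.54 ± 0.18, SD, n = 2) and lowest in SEM-K2 with vehicle (7.39 ± 0.10), with untreated RS4:11 between them (8.02 ± 0.06). Its SEM-K2 EC50 group (8.15 ± 0.25) did not stand beyond the spread from untreated RS4:11. TRIB3 ran from 7.12 ± 0.01 in SEM-K2 at 3xEC50 to 6.25 ± 0.04 in RS4:11 at 3xEC50. Each group mean stood apart from its neighbour by more than the pooled SD of the pair, though single arrays nearly met. The 2 vehicle groups differed by 0.215 against a pooled SD of 0.208, and replicate 1 read 6.78 in each. SEM-K2 vehicle replicate 2 and RS4:11 EC50 replicate 2 both read 6.36. For DDIT4 no neighbouring groups stood apart by that measure.

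**Figure D4:**
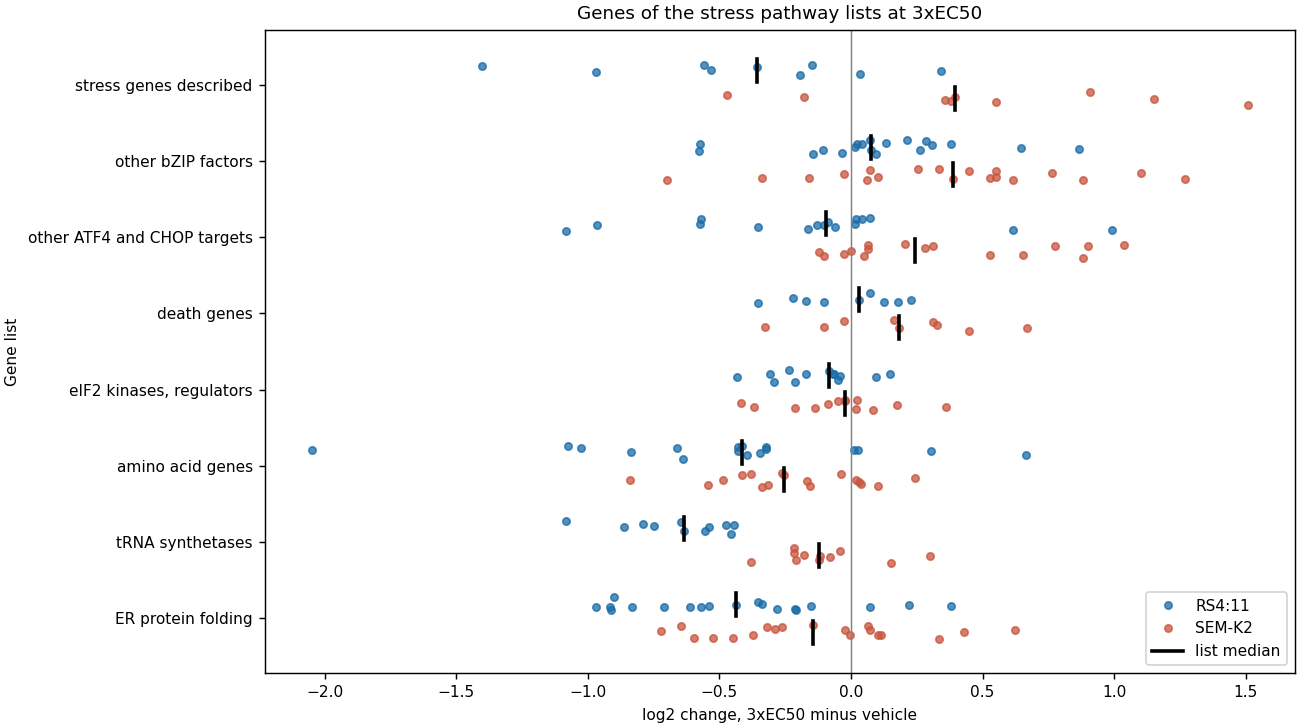
Change at 3xEC50 against vehicle (log2, x axis) of single genes in 8 lists (y axis), RS4:11 in blue and SEM-K2 in red; black bars are list medians. The stress genes lie at medians of 0.39 in SEM-K2 and -0.36 in RS4:11, and the tRNA synthetases at -0.12 and -0.64.

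Other genes of the pathway were read from lists that do not include the 10 members. Of 13 kinases and regulators of eIF2, none was called in either line at 3xEC50, whether or not replicates were blocked, and 0 passed 0.05 before adjustment. At that dose 8 of the 13 lay below vehicle in SEM-K2 and 11 in RS4:11. Their medians were -0.02 in SEM-K2, against 0.06 over all genes, and -0.08 in RS4:11, against 0.02. The member with the smallest p was the haem-sensing kinase gene EIF2AK1 in SEM-K2 (0.36 ± 0.19, limma adjusted p = 0.502) and EIF2S1, the phosphorylated subunit, in RS4:11 (-0.29 ± 0.18).

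Of 19 other bZIP factors, 15 lay above vehicle in SEM-K2 at 3xEC50 (median 0.39) and 14 in RS4:11 (median 0.08). Limma called 0, while unadjusted p-values under 0.05 marked 4 as higher and 1 as lower in SEM-K2, against 8.1% and 3.58% of genes. JUND, a partner of FOS proteins in AP-1, had the smallest p there: 11.17 and 10.53 with vehicle against 11.94 and 11.97 at 3xEC50, a change of 1.10 ± 0.29 (limma adjusted p = 0.188, and 0.0471 with the block, which called it alone). In RS4:11 the smallest p was that of FOSL2 (-0.58 ± 0.22, limma adjusted p = 0.892).

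Of 16 further targets of ATF4 and CHOP outside metabolism, 12 lay above vehicle in SEM-K2 at 3xEC50 (median 0.24) and 6 in RS4:11 (median -0.09). Limma called 0 in both lines, and the block called 3 as higher in SEM-K2, where it called 1.55% of all genes higher. Without adjustment 4 were higher in SEM-K2 at p under 0.05, against 8.1% of genes. In RS4:11 2 were higher, against 2.53%, and 2 lower, against 2.38%. GADD45B, a stress and growth arrest gene, read 7.80 and 7.55 with vehicle and 8.65 and 8.47 at 3xEC50 in SEM-K2, a change of 0.88 ± 0.19 (limma adjusted p = 0.105, and 0.0268 with the block). WARS1, the tryptophanyl-tRNA synthetase, had the smallest p in RS4:11, from 9.68 and 9.55 to 8.39 and 8.68 (-1.08 ± 0.27, limma adjusted p = 0.517). WARS1 is also in the list of tRNA synthetase genes below, so these 2 lists are not separate. Among 9 death genes downstream of CHOP or ATF4, limma and the block called 0 in either line. Unadjusted, 2 of them were higher in SEM-K2 at p under 0.05, against 8.1% of genes, and 0 in RS4:11, against 2.53%. BCL2L11, the gene of the BH3-only protein BIM, had the smallest p in SEM-K2 (0.67 ± 0.25, limma adjusted p = 0.343).

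Beside SESN2 and DDIT4, 11 genes of sestrins, TSC proteins and other brakes of mTORC1 were tested. DDIT4L, a relative of DDIT4 also called REDD2, stood out by its values in SEM-K2. It read 2.39 and 2.09 with vehicle, 3.08 and 3.45 at EC50, and 4.38 and 5.47 at 3xEC50, so that it crossed the floor of 4 only at the higher dose. DDIT4L passed the filter on low values only through those 2 arrays, and its vehicle values lie under the floor, so no fold or test is given. Its values in RS4:11 stayed between 2.08 and 2.29. Of the remaining genes of this list limma called 0 in either line, as did the block. Before adjustment 1 was higher in SEM-K2 at p under 0.05, against 8.1% of genes, and 0 in RS4:11, against 2.53%. The 5 relatives of TRIB3, PPP1R15A and CHAC1 had medians of -0.09 in SEM-K2 and 0.02 in RS4:11, and limma called 0 in either line, 0 with the block and 0 before adjustment.

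ATF4 also drives genes of amino acid supply. Of 17 genes of amino acid synthesis and transport, 12 lay below vehicle in SEM-K2 at 3xEC50 (median -0.25) and 13 in RS4:11 (median -0.42). Limma and the block called 0 in both lines. Unadjusted p-values under 0.05 were found for 2 that were lower in SEM-K2, against 3.58% of genes, and 9 in RS4:11, against 2.38%. PYCR1, of proline synthesis, read 9.48 and 9.53 with vehicle and 8.70 and 8.65 at 3xEC50 in RS4:11, a change of -0.83 ± 0.15 (limma adjusted p = 0.27). In SEM-K2 the smallest p was that of CBS (-0.84 ± 0.30, limma adjusted p = 0.327).

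All 11 tRNA synthetase genes lay below vehicle in RS4:11 at 3xEC50 (median -0.64), and 9 did in SEM-K2 (median -0.12). Before adjustment 10 were lower in RS4:11 at p under 0.05, against 2.38% of genes, and 1 in SEM-K2, against 3.58%. Limma and the block called 0. The difference between the lines at 3xEC50, SEM-K2 minus RS4:11, was above 0 for 11 of 11 synthetase genes (median 0.53) and for 13 of the 17 amino acid genes (median 0.36), as it was for 9 of 9 members. Whether these lists differ from the members was not tested. GARS1 in RS4:11 read 10.59 and 10.55 with vehicle and 9.92 and 9.63 at 3xEC50 (-0.79 ± 0.19, limma adjusted p = 0.499). Of 19 genes of protein folding in the endoplasmic reticulum, 16 lay below vehicle in RS4:11 (median -0.44) and 12 in SEM-K2 (median -0.14), with 0 called by limma or the block. Before adjustment 10 were lower and 0 higher in RS4:11, against 2.38% and 2.53% of genes. In SEM-K2 5 were lower and 2 higher, against 3.58% and 8.1%. MANF, a secreted stress protein, had the smallest p in RS4:11 (-0.92 ± 0.17, limma adjusted p = 0.346) and PDIA4, a disulfide isomerase, in SEM-K2 (-0.72 ± 0.21, limma adjusted p = 0.233).

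The genes whose values ran most alike were sought by Pearson correlation over the 12 arrays after each line was centred on its mean. These arrays share vehicle groups and replicate numbers, and the values are descriptions. PPP1R15A ran closest to P2RY8 (0.970), FBXL14 (0.969) and FTL (0.962), and all 3, like PPP1R15A, had their lowest SEM-K2 value in vehicle replicate 2. DDIT3 ran closest to S1PR2 (0.904), NIBAN2 (0.904) and SLC41A1 (0.900), and PPP1R15A stood in place 63 of its list (0.791). ATF3 ran closest to LONP1 (0.927), DDX20 (0.900) and PARTICL (0.900), with CEBPG in place 8 (0.869). TRIB3 ran closest to SAP30L (0.882), ZKSCAN3 (0.866) and NIBAN2 (0.859), and CEBPB followed in place 4 (0.853).

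DDIT4 ran with genes that divide the replicates. Its nearest were POFUT4 (0.997), PFKFB4 (0.980) and ZNF436 (0.975). PFKFB4, an enzyme that sets the pace of glycolysis and is known to rise in low oxygen, read 7.25 and 3.84 in untreated RS4:11. Replicate 1 exceeded replicate 2 by 1.67 to 3.40 in its 6 groups and by 0.98 to 1.55 for POFUT4. ATF4, which also had replicate 1 above replicate 2 in every group, correlated with DDIT4 at 0.711, against 0.083 for ATF3.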

How the data were processed

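The authors deposited GCRMA output for each probe set, per the submitters' processing notes, without a version. Its scale is not given in the sources used here. It was taken to be log2 from the range of the authors' deposited values, 0.64 to 16.22, and their array medians of 3.13 to 3.16. GCRMA corrects background by probe sequence and equalises the arrays by quantiles, so a shift shared by all genes is removed. Arrays have no read depth, and 2 per group limit the precision. Of 54675 probe sets, 41097 had 1 gene symbol in the platform annotation, 1801 several and 11777 none; only the first kind was named.

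All 12 arrays entered 1 linear model of 6 group means (limma version 3.58.1, lmFit then eBayes, under R version 4.3.3 and the package data.table, version 1.17.8), which had 6 residual and 3.27 prior degrees of freedom. Benjamini-Hochberg adjustment ran over the 10561 genes of each comparison. The fit was checked on simulated data. Deviations of same-numbered arrays from their group means correlated at 0.19 to 0.60 in all 15 pairs of groups, so the numbers were taken to pair arrays; this pairing comes from the data and not from the labels. Alternatives were the block, other filters and probe set rules, median centring, fitting 1 line alone and leaving out each array.

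The members and lists were chosen with earlier results of these data known. Named besides the members were, per list and comparison with vehicle, up to 3 called genes, or else the gene with the smallest p, and the 3 genes most like each of DDIT3, ATF3, PPP1R15A, TRIB3 and DDIT4. Listed genes with no probe set of their own were not analysed here.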

Additional observations from a re-analysis of the deposited data

Results flagged for a closer look

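Among the 9 tested members, some had both treated SEM-K2 arrays above, and both treated RS4:11 arrays below, both vehicle arrays of their line. At 3xEC50 these were ATF3, with a difference between the lines of 1.47, CEBPG, with 0.50, and TRIB3, with 1.08. At EC50 they were DDIT3, with 1.04, and TRIB3, with 0.88. The share of all genes with such a pattern at a single dose was not counted, so these members have no background to be set against. At both doses together 20 of 10561 genes had it, 0.189%, with TRIB3 the single member. The difference between the lines was tested with limma and none of the 5 passed, with adjusted p-values of 0.415 or more at 3xEC50.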

How the results depend on the processing

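At 3xEC50 in SEM-K2, where 1 member was called, the replicate block called 2 (PPP1R15A and DDIT3) over all 12 arrays and 2 within each line, and 0 were called with no filter on low values or with only the arrays of the line. Leaving out single arrays gave 0 to 2. With both doses pooled, where 1 was called, the same settings gave 2, 2, 0 and 0, and leaving out single arrays gave 0 to 1. Between untreated lines, where 0 were called, the block gave 5 and the block within lines 3, and leaving out single arrays 0 to 2. The other 9 comparisons kept 0 calls under every setting run. CEBPB at EC50 in SEM-K2 changed sign without SEM-K2 vehicle replicate 2, with leave-one-out values of -0.020 to 0.69, and PPP1R15A between untreated lines without SEM-K2 vehicle replicate 1, with -0.13 to 0.65. A further 59 sign changes, among 2208 values, concerned changes smaller than their SE. The causes were not tested. Genes called at 3xEC50 in SEM-K2 numbered 87 of all tested, 220 with the block, 299 with the block within lines, 44 with probe sets averaged and 3 from the arrays of that line alone. Leaving out single arrays gave 14 (without SEM-K2 vehicle replicate 2) to 169 (without SEM-K2 vehicle replicate 1), with 18 without SEM-K2 3xEC50 replicate 2, 151 without SEM-K2 3xEC50 replicate 1, and 39 to 55 without any 1 of the other 8 arrays. With 2 arrays per group, changes under about 1 on the log2 scale could rarely be called, and CHAC1 lay below the floor.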
